A study of Mus musculus with 8 samples.

Results

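The genes described here encode chromatin remodellers, histone methyltransferases and demethylases, bromodomain readers and the coactivators and corepressors that work with them. They were taken by symbol from the deposited gene table, which held 55401 genes. The families were the Kmt2, Setd, Chd, Smarc, Arid, Kdm, Ehmt, Nsd, Brd and Ncor genes with Ep300, Crebbp and Ep400. The rule found 82 genes, after 4 antisense or pseudogene names were left out. The RNA came from haematopoietic stem cells (HSCs), the self-renewing marrow cells from which all blood lineages derive. Each library used about 3000 HSCs, sorted from marrow of C57BL/6 mice 8 weeks of age. The 4 Nynrin CKO libraries came from mice with floxed Nynrin alleles and Tie2-Cre, a recombinase under a promoter active in endothelium and blood cells. The 4 control libraries carry the label wild type, and the protocols name floxed Nynrin mice without Cre as the other genotype. Since the control mice lacked Cre, its own effects and those of Nynrin loss cannot be told apart, nor can deletion in HSCs and in endothelium. Whether the libraries stem from separate mice is not in the labels, and p-values therefore describe spread among these libraries that could be technical.

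DNA in the nucleus is wound around histones. Remodelling ATPases such as those of the SWI/SNF, CHD and ISWI families slide or evict histones, while methyltransferases, demethylases and acetyltransferases write and remove marks on histone tails that reader proteins bind. In HSCs these enzymes are known for their part in self-renewal and lineage choice, and several are recurrently mutated in human leukaemia.

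Deposited counts summed to 36942835 to 56437299 per library. Nynrin was at 30.0 to 47.4 CPM (reads on the gene per 1e6 counted, after TMM scaling) in controls and at 8.20 to 12.7 CPM in Nynrin CKO, lower in every deleted library. Control 4 and Nynrin CKO 3 and 4 had few reads on olfactory and vomeronasal receptor genes, 142 to 225 CPM (unscaled) against 891 to 1670 in the other 5 libraries. They are referred to as the libraries, or set, with few and with more receptor reads. Controls 3 and 4 held 177719 and 224087 counts of Xist, the RNA of the inactive X, and the other 6 libraries 245 to 471. Reads of the Y-linked gene Uty went the other way, with 4 and 0 counts where Xist was high and at least 780 elsewhere. Controls 3 and 4 thus carry the pattern of female mice, and controls 1 and 2 and every Nynrin CKO library that of males. Sex is therefore not balanced between the genotypes where all controls are used, and the Xist class below stands for this split. The HSC label was checked on 12 marker genes, among them Kit, Hlf and Mecom. Their summed level was 3244 to 4082 CPM in controls and 3642 to 4151 CPM in Nynrin CKO, and none of the 12 passed the test. Marker sums of other cell types differed more. The 10 neutrophil genes summed to 204 to 354 CPM in controls, to 469 and 514 CPM in Nynrin CKO 1 and 2 and to 4025 and 4065 CPM in Nynrin CKO 3 and 4, with Ctsg alone passing and Ly6g near 0 in every library. Monocyte and macrophage markers summed to 337 to 403 CPM in controls and 475 to 796 CPM in Nynrin CKO, with 1 of 10 passing. The sums were 1110 to 1414 and 2073 to 2463 CPM for erythroid genes (3 of 10 passing) and 44.4 to 57.1 and 108 to 198 CPM for B cell genes (0 of 10). They were 59.5 to 88.9 and 149 to 298 CPM for T and NK cell genes (1 of 10) and 8.62 to 30.7 and 30.6 to 130 CPM for mast cell and basophil genes (2 of 8). Single genes carried much of several sums. On average Car2 (erythroid) went from 1186 to 2010 CPM, Nkg7 (T and NK) from 60.7 to 201 CPM and Jchain (B cell) from 9.59 to 80.2 CPM. Log2 fold changes were negative for 1 of the 10 erythroid, 3 of the 10 T and NK cell and 2 of the 10 B cell genes. Endothelial genes summed to 397 to 473 and 382 to 556 CPM (0 of 8). Fewer cells of a type and less RNA per cell cannot be told apart in such bulk samples, and the part of these other cells in the results below was not tested.

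The chromatin genes were well expressed. Together they took 0.723% to 0.820% of all deposited counts in controls and 0.643% to 0.658% in Nynrin CKO, so the share was below every control in each deleted library. This share is unscaled and also depends on the counts of all other genes. TMM factors were 1.044 to 1.155 in controls and 0.806 to 1.028 in Nynrin CKO. Of the 82 genes, 80 had enough counts to be tested and 72 of those reached a control mean of 10 CPM. Arid3c and Kdm4dl were not tested, with at most 21 and 36 counts in any library. Levels of different genes were compared per kilobase of the longest annotated transcript. In controls the highest was Smarce1, a DNA-binding subunit of SWI/SNF, at 59.96 CPM per kb. It was followed by the bromodomain protein gene Brd8 at 39.5, the BET reader gene Brd2 at 35.97 and Arid5a, an ARID-domain protein that also binds RNA, at 34.6 CPM per kb. The methyltransferase gene Kmt2d (32.2 CPM per kb), the TIP60-complex ATPase gene Ep400 (31.4) and the remodeller gene Chd2 (29.3) came next, close enough that their order is not resolved by the spread. At the low end were Chd5, mainly a neural remodeller, at 0.105 CPM per kb and the ISWI ATPase gene Smarca1 at 0.238. The related ATPase gene Smarca5 was at 4.93 CPM per kb.

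Between genotypes 3 of the 80 chromatin genes passed the test. The median log2 fold change of Nynrin CKO over control was 0.0026 over the 80 genes, with 40 above and 40 below 0, and it was -0.089 over all 27573 tested genes. When libraries were scaled by their totals alone the medians were -0.28 and -0.34, so both depend on the scaling. Kdm6a and Kdm5c, both X-linked demethylase genes, fell, and Arid4a, which encodes an RB-binding ARID protein, rose (edgeR quasi-likelihood test, Benjamini-Hochberg adjusted p threshold 0.05 over all tested genes). That is 1.25% called higher and 2.5% called lower. Over all tested genes the shares were 2.22% higher, 0.588% lower and 2.8% in either direction against 3.75% of the chromatin genes. All 4 Nynrin CKO libraries lay above all 4 controls for 10 genes (12.5%, against 9.52% of all tested genes) and below for 8 (against 4.83%). At an unadjusted p under 0.05 (edgeR), 15 genes were higher (18.8%, against 13.2% of all tested genes) and 11 lower (13.8%, against 5.78%). The median transcript length was 6370 bases over the tested chromatin genes and 2570 over all tested genes. Counts within the class of longest transcripts are given below. A further 10 genes had an edgeR adjusted p between 0.05 and 0.1, which is 12.5% against 5.41% of all tested genes.

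**Figure D1:**
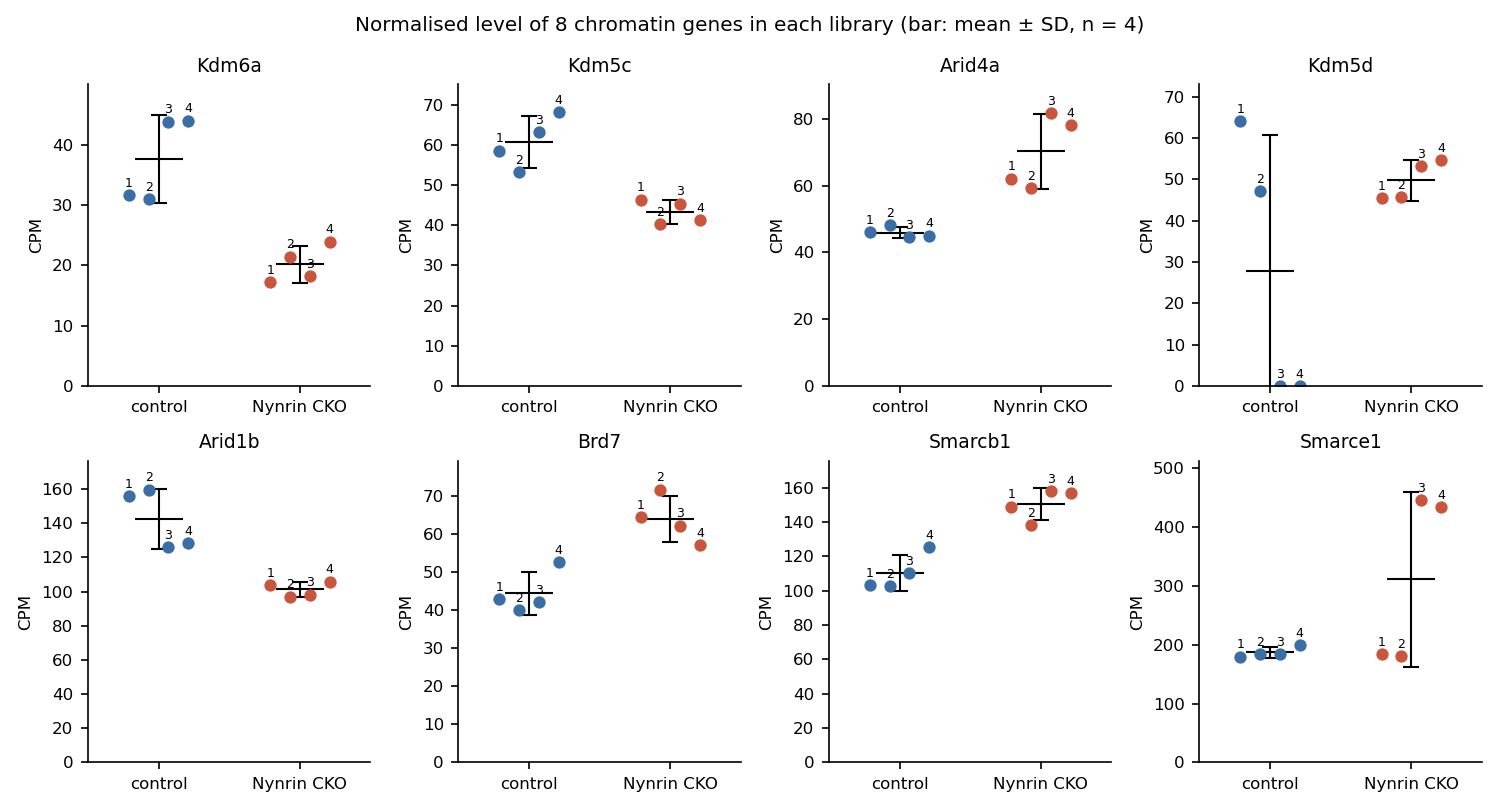
Normalised level (CPM) of 8 chromatin genes in each library, with controls in blue, Nynrin CKO in red, library numbers above the points and black bars for the mean ± SD (n = 4). Kdm6a and Kdm5c lie lower and Arid4a higher in all 4 Nynrin CKO libraries, Kdm5d is at 0 in controls 3 and 4, and Smarce1 is high in Nynrin CKO 3 and 4 only.

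Kdm6a (ENSMUSG00000037369, also called UTX) encodes a demethylase that removes H3K27 methylation (methyl groups on a lysine of the histone H3 tail), the mark laid down by Polycomb. The gene lies on chromosome X from 18162575 to 18279936 in mm10. It was at 31.6, 30.9, 43.8 and 44.0 CPM in controls 1 to 4 and at 17.1, 21.4, 18.2 and 23.9 CPM in Nynrin CKO 1 to 4. Every Nynrin CKO library lay below every control, at 53.7% of the control mean. On the log2 scale the change was -0.90 (SE 0.17, edgeR adjusted p = 0.0408). The two-sided exact permutation test gave p = 0.0286, its smallest possible value with 4 libraries a group. Kdm6a is known to escape X inactivation, and the 2 highest libraries were controls 3 and 4, those with Xist. Against controls 1 and 2 alone, which have as little Xist as the Nynrin CKO libraries, the log2 fold change was -0.59 (edgeR adjusted p = 0.189). With the Xist class as a term it was -0.63 (edgeR adjusted p = 0.0944), so it did not pass in either analysis. The log2 fold change was -0.88 in the set with more receptor reads and -1.06 in the set with few. The only control in the set with few is control 4, which is rich in Xist, whereas its Nynrin CKO libraries are not. Genotype and Xist class therefore cannot be told apart in that set, and the set with more includes control 3, also rich in Xist.

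Kdm5c (ENSMUSG00000025332) encodes an H3K4 demethylase, which acts on the mark of active promoters, and it too is known to escape X inactivation. It lies on chromosome X from 152233020 to 152274535. Controls 1 to 4 were at 58.5, 53.1, 63.2 and 68.1 CPM, and Nynrin CKO 1 to 4 at 46.3, 40.3, 45.4 and 41.3 CPM. The groups did not overlap, and controls 3 and 4 were again the highest. The log2 fold change, -0.49 (SE 0.11), passed (edgeR adjusted p = 0.0492; two-sided exact permutation p = 0.0286). It was -0.33 against controls 1 and 2 alone (edgeR adjusted p = 0.268) and -0.37 with the Xist class as a term (edgeR adjusted p = 0.154).

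Kdm5d, the Y-linked counterpart of Kdm5c, followed the same split. It had 0 counts in controls 3 and 4, where 3 counts would be 0.0703 and 0.0572 CPM, and stood at 64.1 and 47.1 CPM in controls 1 and 2. Nynrin CKO 1 to 4 were at 45.4, 45.7, 53.2 and 54.6 CPM, within or just below the range of controls 1 and 2. Across genotypes it was not called (edgeR adjusted p = 0.830), and its fitted fold change rests on the libraries at 0. The third X-linked gene of the set, Smarca1, had at most 84 counts in any library.

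Among the promoter windows of RefSeq (build GRCm38.p6), 58 of the 82 chromatin genes had an entry, and the window used here was the 250 bases before the annotated start nearest to the gene's 5′ end. The windows of the members that fell are shown 5′ to 3′ on the coding strand because these members share a chromosome and a direction of change. Capitals mark CpG dinucleotides, the sites of DNA methylation. Kdm6a lies at chrX:18162325-18162574 (plus strand) and Kdm5c at chrX:152232977-152233226 (plus strand).
Kdm6a: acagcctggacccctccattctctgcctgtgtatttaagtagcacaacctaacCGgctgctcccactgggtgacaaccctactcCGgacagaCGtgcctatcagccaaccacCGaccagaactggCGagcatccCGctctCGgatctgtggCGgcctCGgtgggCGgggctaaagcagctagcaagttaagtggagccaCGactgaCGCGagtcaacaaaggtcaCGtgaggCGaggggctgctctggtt
Kdm5c: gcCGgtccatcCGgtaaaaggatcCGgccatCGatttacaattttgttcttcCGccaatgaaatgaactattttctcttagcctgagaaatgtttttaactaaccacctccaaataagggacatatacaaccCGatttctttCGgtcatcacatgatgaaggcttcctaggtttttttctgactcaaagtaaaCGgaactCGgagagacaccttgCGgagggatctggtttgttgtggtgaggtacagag
The Kdm6a window held 15 CpG and the Kdm5c window 10. The Kdm5c start in that table lies 207 bases inside the gene as the files place it. The median over the 58 chromatin genes was 22 CpG, against 8 over 20934 genes, which were not limited to expressed ones. For Brd3, Setd5, Smarcc1 and Smarcd2 the start used lies 5340 to 32264 bases from the gene's 5′ end. The NRF1 consensus motif, searched like the others on both strands, was in 7 of the 58 windows (12.1%, against 4.7% of all), the ETS motif CCGGAAGT in 1 (1.7%, against 3.5%) and the TATA box TATAAA in 3 (5.2%, against 12.3%). None of the motifs was found in the Kdm6a and Kdm5c windows.

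Arid4a (ENSMUSG00000048118), which has no window in that table, encodes a retinoblastoma-binding subunit of the SIN3 histone deacetylase complex. It lies on chromosome 12 from 71015990 to 71098592. It was at 46.1, 48.2, 44.6 and 45.0 CPM in controls 1 to 4 and at 62.1, 59.3, 81.8 and 78.1 CPM in Nynrin CKO 1 to 4. The controls were tightly grouped, every Nynrin CKO library lay above them, and 3 and 4 were higher than 1 and 2. The log2 fold change, 0.61 (SE 0.12), passed (edgeR adjusted p = 0.0438; two-sided exact permutation p = 0.0286). It was 0.39 in the set with more receptor reads and 0.83 in the set with few. Its close relative Arid4b averaged 57.6 ± 4.16 CPM over controls against 82.5 ± 19.7 CPM after deletion (SD, n = 4 each), a log2 fold change of 0.52 that did not pass (edgeR adjusted p = 0.117). The calls for Kdm6a, Kdm5c and Arid4a were lost when any single library was left out, except that Kdm6a and Arid4a remained called without control 4 (edgeR adjusted p = 0.0459 and 0.0487).

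**Figure D2:**
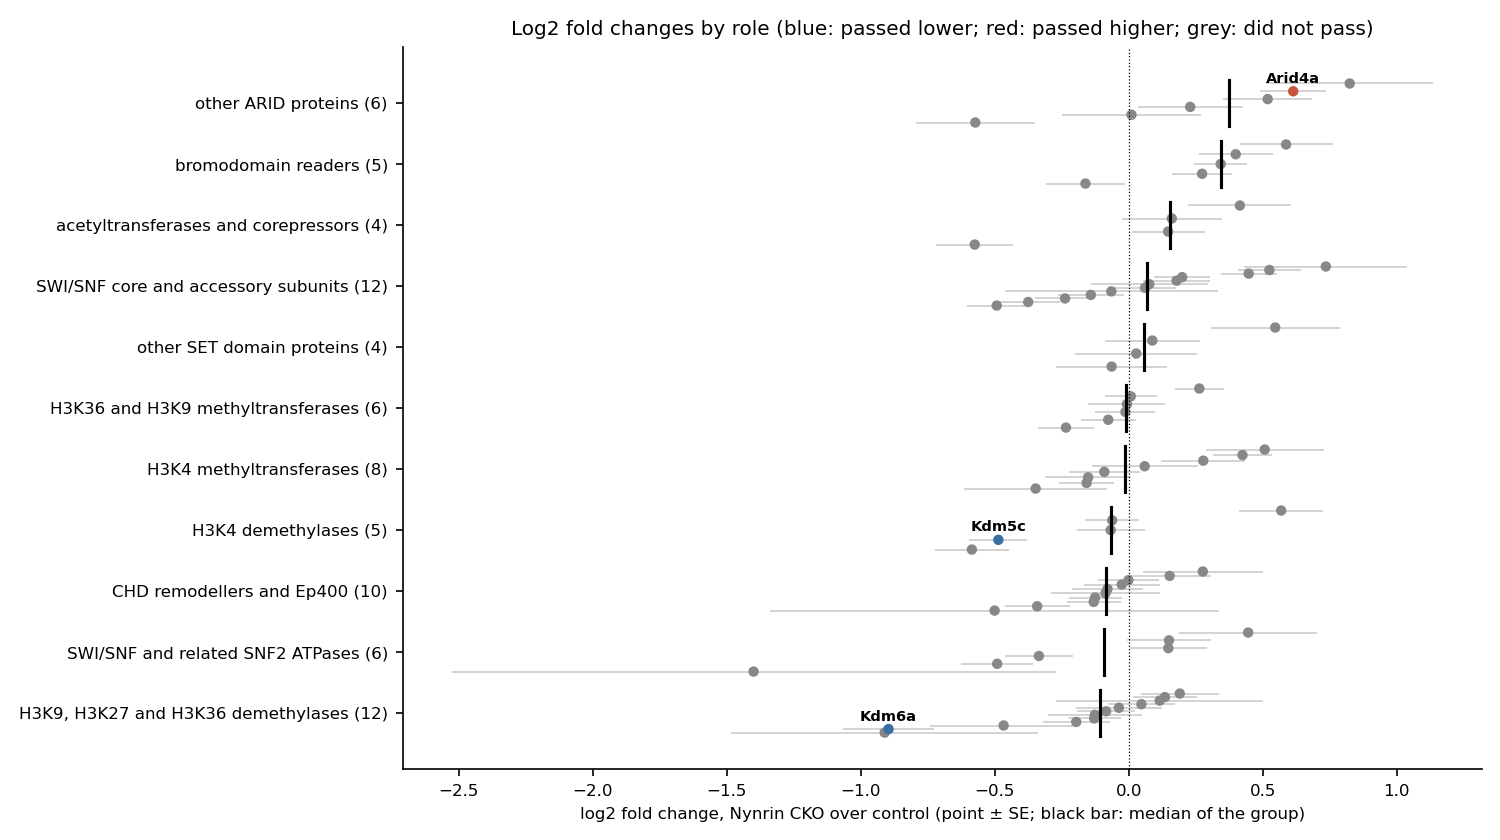
Log2 fold change (Nynrin CKO over control, point ± SE) of the tested chromatin genes by role, with the number of genes in brackets, Kdm5d left out and a black bar at each group's median. The points gather around 0 in most groups, with Kdm6a (-0.90), Kdm5c (-0.49) and Arid4a (0.61) the 3 that passed.

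In SWI/SNF, which uses the ATPases Smarca4 (BRG1) or Smarca2 (BRM), no subunit passed. Smarca4 averaged 171 ± 14.7 CPM over controls against 189 ± 33.45 CPM after deletion (SD, n = 4 each), with a log2 fold change of 0.15 (edgeR adjusted p = 0.674). Smarca2 measured 114 ± 10.3 and 90.4 ± 12.9 CPM, with a log2 fold change of -0.34 (edgeR adjusted p = 0.185), and its groups did not overlap. The related ATPase Smarcad1, which acts in DNA end resection, was at 46.8 to 57.1 CPM in controls and 31.2 to 43.8 CPM in Nynrin CKO (edgeR adjusted p = 0.0812).

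Among the 12 core and accessory SWI/SNF subunits log2 fold changes had a median of 0.068, and 3 genes came close to the threshold. Arid1b, the ARID subunit that is alternative to Arid1a, was at 126 to 160 CPM in controls and 97.0 to 106 CPM in Nynrin CKO, with no overlap. Its log2 fold change of -0.49 (SE 0.11) missed the threshold (edgeR adjusted p = 0.0502; two-sided exact permutation p = 0.0286). It passed in 7 of 22 alternative analyses. Brd7, a bromodomain subunit of the PBAF form, was at 40.0 to 52.5 CPM in controls and 57.1 to 71.6 CPM in Nynrin CKO (log2 fold change 0.52, edgeR adjusted p = 0.0503). It was 0.71 in the set with more receptor reads and 0.18 in the set with few. Smarcb1 (SNF5), a core subunit and tumour suppressor, was at 102 to 125 CPM in controls and 138 to 158 CPM in Nynrin CKO (log2 fold change 0.45, edgeR adjusted p = 0.0528).

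Of the 10 CHD remodellers and Ep400 none passed, and their median log2 fold change was -0.084. Chd2, a remodeller of active genes, was at 235 to 294 CPM in controls and 193 to 236 CPM in Nynrin CKO (log2 fold change -0.34, edgeR adjusted p = 0.156). Chd4, the ATPase of the NuRD complex, measured 107 ± 7.88 and 98.1 ± 6.31 CPM (SD, n = 4 each), and its log2 fold change was -0.13 (SE 0.099). Ep400 measured 336 ± 22.7 and 335.5 ± 31.4 CPM, a log2 fold change of -0.0019 with a standard error of 0.11. Chd8, a repressor of beta-catenin targets, had a log2 fold change of -0.13 (edgeR adjusted p = 0.577).

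Among H3K4 methyltransferases none of 8 passed. Kmt2e, a divergent family member known for its part in HSC fitness, was closest, at 177 to 232 CPM in controls and 264 to 291 CPM in Nynrin CKO (log2 fold change 0.42, edgeR adjusted p = 0.0725). Kmt2d, an enhancer methyltransferase, measured 638 ± 38.4 and 574 ± 116 CPM (SD, n = 4 each; edgeR adjusted p = 0.703). Setd7, which also methylates non-histone proteins, was at 68.6 to 98.4 CPM in controls, at 85.1 and 86.6 CPM in Nynrin CKO 1 and 2 and at 141 and 158 CPM in 3 and 4 (edgeR adjusted p = 0.252).

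No H3K36 or H3K9 methyltransferase passed (0 of 6). Setd2, Nsd1, Nsd2 and Nsd3, which act on H3K36, had log2 fold changes of -0.013, -0.077, -0.0072 and 0.0070, with standard errors of 0.098 to 0.14. The H3K9 enzymes Ehmt1 (GLP) and Ehmt2 (G9a), which work as a dimer, pointed in different directions. Ehmt1 had a log2 fold change of -0.23 (edgeR adjusted p = 0.262) and Ehmt2 of 0.26 (edgeR adjusted p = 0.149). The remaining SET proteins, Setd3 (an actin methyltransferase), Setd4, Setd5 and Setd6, held none that passed. Setd5 had a log2 fold change of -0.064 (edgeR adjusted p = 0.918), Setd3 of 0.087 (edgeR adjusted p = 0.858) and Setd6 of 0.55 (edgeR adjusted p = 0.261).

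Beside Kdm5c and Kdm6a, no demethylase passed. Kdm1b (LSD2), an amine-oxidase H3K4 demethylase, was at 27.3 to 32.4 CPM in controls and 16.7 to 23.4 CPM in Nynrin CKO (log2 fold change -0.59, edgeR adjusted p = 0.0548). Kdm1a (LSD1), its relative and a brake on myeloid genes, was at 14.4 to 17.6 CPM in controls and 19.2 to 27.6 CPM in Nynrin CKO (log2 fold change 0.57, edgeR adjusted p = 0.0826). The groups of both genes lay apart, in different directions. Of the H3K36 demethylases, Kdm2b had a log2 fold change of -0.085 (edgeR adjusted p = 0.759) and Kdm2a of -0.47 (edgeR adjusted p = 0.419). Kdm5b, an H3K4 demethylase, measured 105 ± 7.92 and 100.2 ± 7.03 CPM (SD, n = 4 each; edgeR adjusted p = 0.816).

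Of the 5 bromodomain readers, 4 had positive log2 fold changes and none passed. The group's median was 0.34, and it was 0.069 when libraries were scaled by their totals alone. Brd1, a scaffold of histone acetyltransferase complexes, was at 36.5 to 56.6 CPM in controls and 58.0 to 77.6 CPM in Nynrin CKO (edgeR adjusted p = 0.0970). Brd8 measured 177 ± 23.1 and 233 ± 30.4 CPM (SD, n = 4 each; edgeR adjusted p = 0.144), and for both genes the groups lay apart. Brd2 had the opposite sign, at -0.16 (edgeR adjusted p = 0.652).

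Among the coregulators, the corepressor gene Ncor1 had a log2 fold change of 0.41 (edgeR adjusted p = 0.285). The acetyltransferase genes Ep300 and Crebbp were at 0.16 (edgeR adjusted p = 0.733) and 0.15 (edgeR adjusted p = 0.658).

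Since paralogues such as Kdm1a and Kdm1b had log2 fold changes of opposite sign, the ratio of their levels per kilobase was taken in each library, which does not depend on how libraries are scaled. The comparison was chosen after these values were seen, so no test is given. Of 18 paralogue pairs, 8 had such opposite signs, and the ratios of 6 pairs (33.3%) lay apart in all 4 against 4 libraries. Among all 3003 pairs of the tested chromatin genes with counts in every library, 22.0% did. Kdm1a over Kdm1b was at 0.772, 0.958, 0.751 and 1.06 in controls 1 to 4 and at 1.35, 1.52, 2.57 and 2.72 in Nynrin CKO 1 to 4. Kdm1b was thus the more abundant per kilobase in 3 of 4 controls, and Kdm1a in all 4 Nynrin CKO libraries. Kdm1b overlaps Dek on the opposite strand, which had 72704 counts in total against 8884 for Kdm1b, so the Kdm1b level may include shared reads.

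Ehmt2 over Ehmt1 averaged 0.454 ± 0.042 over controls against 0.640 ± 0.058 after deletion (SD, n = 4 each). That ratio was higher in every deleted library. Smarcc1 over Smarcc2, the paired scaffold subunits of SWI/SNF, went from 0.971 ± 0.152 to 1.28 ± 0.076, Smarcd2 over Smarcd1 from 0.812 ± 0.105 to 1.10 ± 0.102 and Brd7 over Brd9 from 1.95 ± 0.118 to 2.45 ± 0.198. Arid5a over Arid5b was lower in Nynrin CKO, at 2.51 ± 0.602 against 4.38 ± 0.863. The ratios of Smarca4 to Smarca2 and of Arid1a to Arid1b overlapped between groups, at 1.17 to 1.53 and 1.25 to 1.62 in controls and 1.38 to 2.72 and 1.37 to 2.91 in Nynrin CKO. In 4 of the 6 pairs apart, the member that was relatively higher in Nynrin CKO had the shorter transcript. Kdm1b, Smarcc1, Smarcd1, Kmt2e, Arid4b, Kdm2b, Kdm5a, Setd1a, Smarcd3, Arid3c, Brd2 and Nsd2 overlap a gene on the opposite strand with at least 10% of their own count, and as no strand setting of the counting is stated, reads there may be shared. Setd2 overlaps such a gene, Gm42763, on its own strand.

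**Figure D3:**
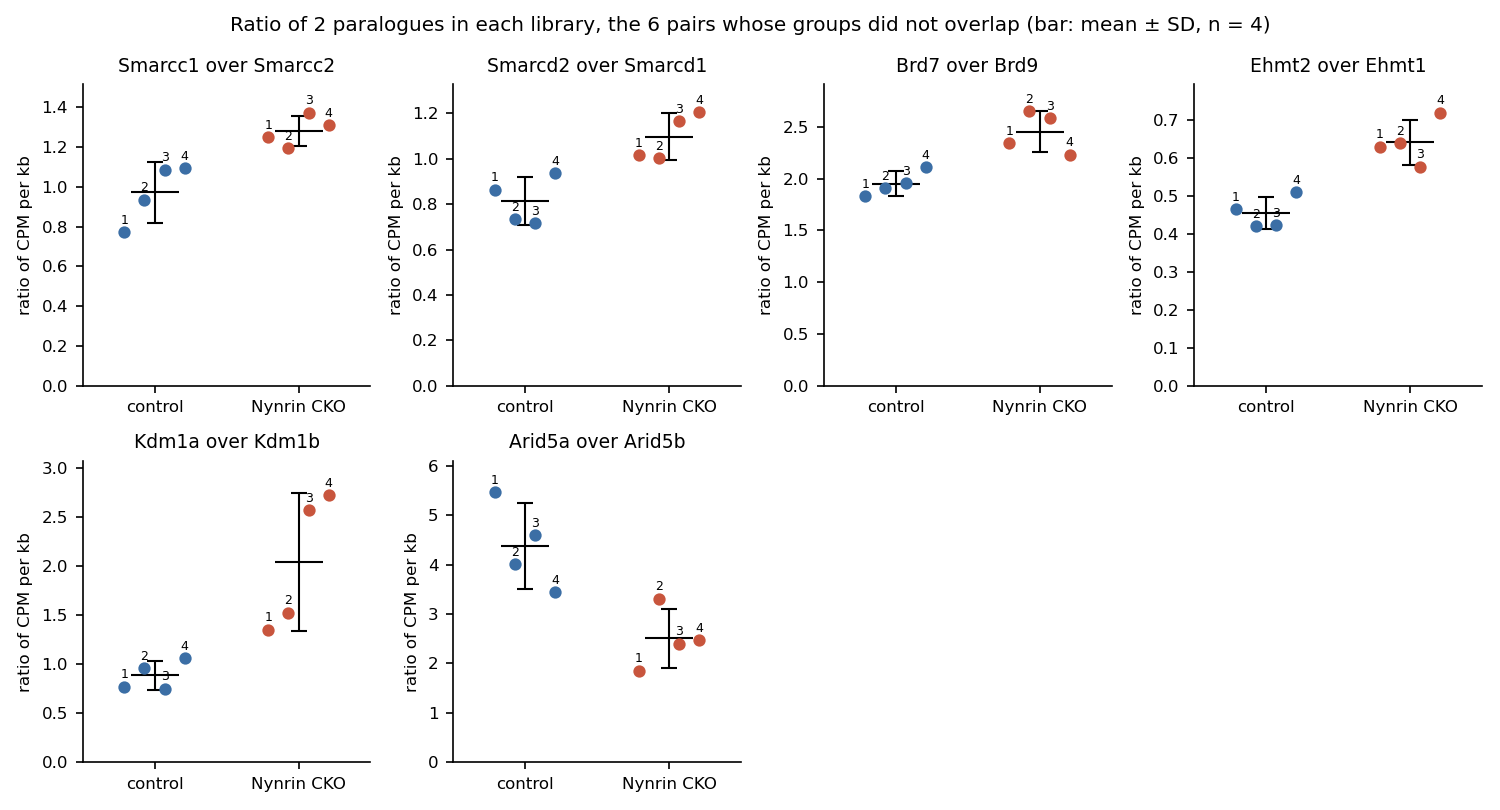
Ratio of the levels per kilobase of 2 paralogues in each library, controls in blue and Nynrin CKO in red, with library numbers and the mean ± SD (n = 4), for the 6 of 18 pairs whose groups did not overlap. Kdm1a over Kdm1b goes from 0.886 to 2.04 on average and Ehmt2 over Ehmt1 from 0.454 to 0.640.

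Some chromatin genes differed within the Nynrin CKO group. Of 73 chromatin genes with a Nynrin CKO mean of at least 10 CPM, 14 were at least 1.5 times as high in Nynrin CKO 3 and 4 as in 1 and 2, and 2 were lower by that factor, Arid3b and Kdm3a. These are 19.2% and 2.74%, against 14.5% and 10.5% of all 9912 tested genes at that level, and a difference upward of that size was thus frequent among all genes too. Smarce1 was at 180, 184, 184 and 199 CPM in controls 1 to 4, at 184 and 181 CPM in Nynrin CKO 1 and 2 and at 445 and 434 CPM in Nynrin CKO 3 and 4. Nynrin CKO 1 and 2 were thus at the control level and 3 and 4 at 2.41 times theirs, while control 4, of the same library set as the latter, was at 199 CPM. Kdm6b, an H3K27 demethylase induced in inflammation, was at 14.99 to 19.97 CPM in controls, at 9.24 and 9.27 CPM in Nynrin CKO 1 and 2 and at 29.2 and 27.8 CPM in 3 and 4. Its Nynrin CKO pairs lay on either side of the controls.

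Smarcal1, which anneals DNA at stalled forks, was at 89.2 to 112 CPM in controls, at 87.4 and 94.5 CPM in Nynrin CKO 1 and 2 and at 184 and 186 CPM in 3 and 4. Chd6 was at 97.1 to 116 CPM in controls, at 87.4 and 101 CPM in Nynrin CKO 1 and 2 and at 175 and 172 CPM in 3 and 4. These genes had the highest ratios between the pairs. Ep300, Ncor1, Arid1a, Arid5a, Setd5, Setd1a, Setd7, Setd6, Arid4b and Arid5b made up the rest of the 14, with ratios of 1.51 to 1.74. In a fit with 1 mean per group and library set, the genotype effect differed between the sets for 4 of the 80 genes (5.0%, against 7.92% of all tested genes; edgeR adjusted p threshold 0.05), Smarce1, Kdm6b, Chd6 and Smarcal1. Control 4 stands alone in its set there and is assumed to vary like the others. Neutrophil marker sums were also highest in Nynrin CKO 3 and 4, at 4025 and 4065 CPM, and their part in the result was not tested.

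**Figure D4:**
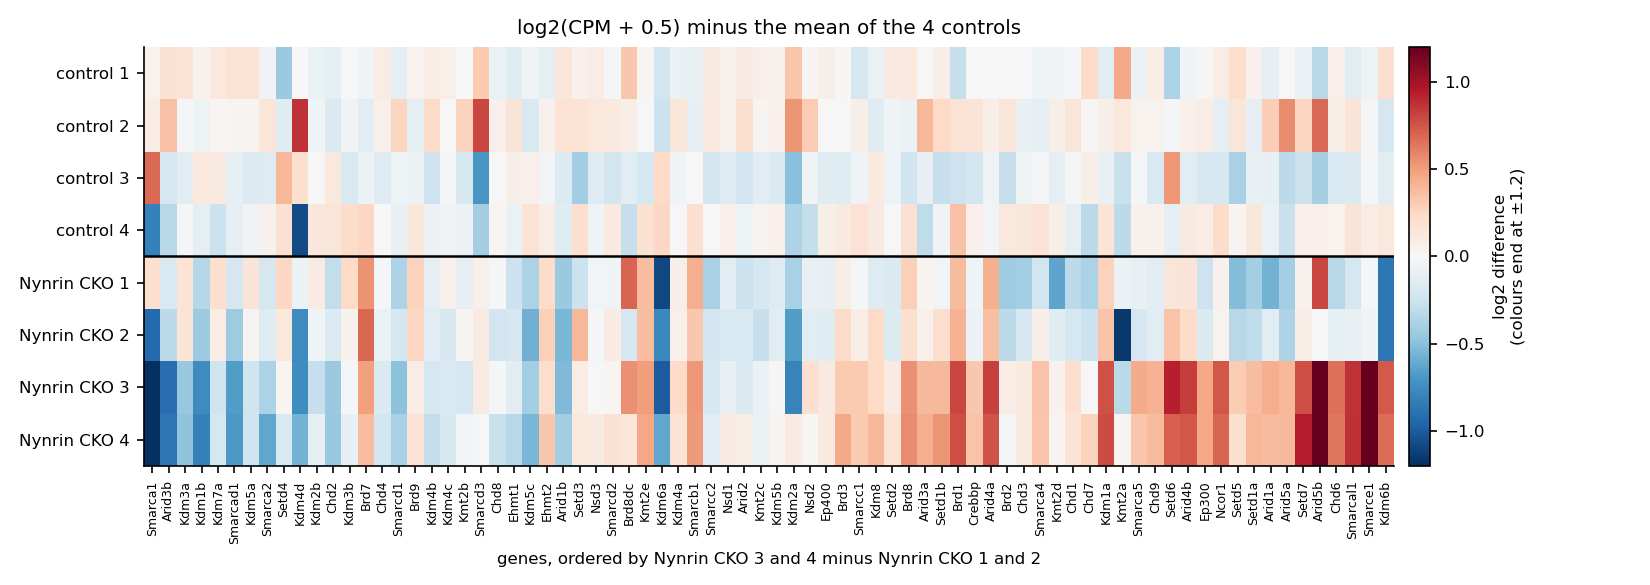
log2(CPM + 0.5) of 76 chromatin genes in each library minus the mean of the 4 controls, in colours that end at ±1.2 (3 genes go beyond), with genes ordered by the difference between Nynrin CKO 3 and 4 and Nynrin CKO 1 and 2. Smarce1, Smarcal1, Chd6 and Kdm6b, at the right, are red in Nynrin CKO 3 and 4 and white or blue in 1 and 2, and Kdm6a is blue in all 4 Nynrin CKO libraries.

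Some genes also differed between libraries of the same pair. Kmt2a (MLL1), the methyltransferase gene broken in MLL-rearranged leukaemia and needed by HSCs, was at 235, 186, 142 and 137 CPM in controls 1 to 4 and at 163, 76.1, 137 and 174 CPM in Nynrin CKO 1 to 4. Nynrin CKO 1 had 2.14 times the level of Nynrin CKO 2, and the genotypes overlapped (log2 fold change -0.35, edgeR adjusted p = 0.572). Arid5b was at 103 and 59.2 CPM in the same libraries and Kmt2d at 409 and 575 CPM. In all, 6 of the 73 genes differed by at least 1.3 times between Nynrin CKO 1 and 2, the others being Arid1a, Kdm8 and Setd3. Between Nynrin CKO 3 and 4 there were 2, Kdm2a at 49.2 and 92.1 CPM and Kdm6a. These counts are 8.22% and 2.74% of the chromatin genes at that level, against 7.72% and 6.69% of all tested genes at that level.

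Chromatin genes have long transcripts, and log2 fold changes in this series followed transcript length. Expressed genes were split into 5 classes of equal size by the length of their longest transcript. Of the expressed chromatin genes, 53 were in the class of longest transcripts, above 5061 bases, and none in the shortest. In that class the median log2 fold change was -0.17 over all 3350 genes and -0.0072 over the chromatin genes, and 2 chromatin genes were called lower, against 77 of all. In the next class the medians were -0.076 and -0.096, with 14 chromatin genes. After a trend on length and GC content was removed from each library, the chromatin median was 0.21, the median over all tested genes was -0.155 and none of the chromatin genes passed.

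**Figure D5:**
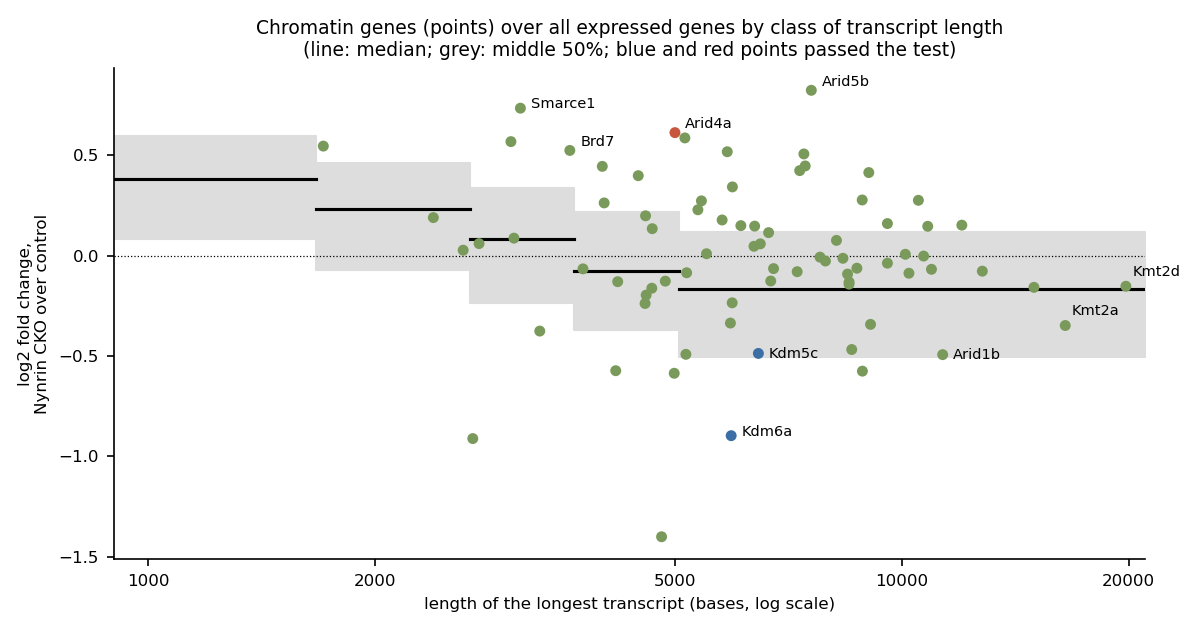
Log2 fold change against the length of the longest transcript (log scale) for chromatin genes (points; blue and red passed the test), over the median (line) and middle 50% (grey) of all expressed genes in each of 5 length classes. The lines step down from 0.38 in the shortest class to -0.17 in the longest, where 53 chromatin genes lie.

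Subunits of the same complexes that carry other names, and further lysine methyltransferases, demethylases and acetyltransferases, were counted from 9 lists. Of 101 tested, 4 rose and none fell, against 2.22% of all tested genes called higher and 0.588% called lower. These 4 genes were not followed through the alternative analyses. Over the 101 the median log2 fold change was 0.21 and the median transcript length 3585 bases. Ing3, a reader subunit of the TIP60 acetyltransferase complex, rose from 33.9 to 48.3 CPM (log2 fold change 0.51, edgeR adjusted p = 0.0394). Actr6, an actin-related subunit of the SRCAP remodeller, rose from 20.97 to 34.7 CPM (0.73, edgeR adjusted p = 0.0431), and Dmap1, a subunit shared by both complexes, from 30.4 to 42.0 CPM (0.47, edgeR adjusted p = 0.0484). These were 3 of 20 tested INO80, SRCAP and TIP60 subunits, with a list median of 0.41. Chrac1, a histone-fold subunit of the ISWI complex CHRAC, rose from 44.3 to 67.5 CPM (0.61, edgeR adjusted p = 0.0417) and was 1 of 9 ISWI partners. None passed among 14 further SWI/SNF subunits (median 0.058), 12 NuRD subunits (0.39), 12 COMPASS subunits (0.19), 4 members of the NCOR complex (0.10), 15 other lysine methyltransferases (-0.039), 8 other demethylases (0.20) and 7 other acetyltransferases (0.17).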

How the data were processed

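Whole-number counts per gene for 8 libraries were deposited by the authors, with mm10 named as the build in the submitters' processing notes. Aligner, counter and strand setting were not given in the sources used. Groups came from the sample labels, 4 libraries each. Genes passing edgeR's filterByExpr were tested with edgeR 4.0.16 (R 4.3.3; TMM factors, robust quasi-likelihood test, no covariate, Benjamini-Hochberg adjustment over 27573 genes). Levels are CPM on TMM-scaled library sizes, and 36942835 to 56437299 counts per library set the counting precision. Single genes also had a two-sided exact permutation test of log2(CPM + 1) over 70 assignments, with a smallest p of 0.0286. Transcript lengths came from GENCODE M21. The fit was tested on simulated data.

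Alternatives covered scaling, filters, DESeq2 1.42.0, limma-voom (limma 3.58.1), a replicate block, libraries left out, library sets, a length and GC trend and the Xist class. Named genes were those that passed, in each role group the 2 highest per kilobase in controls and the 2 of smallest p, and the X- and Y-linked members. Other members named, the paralogue pairs, the folds of 1.5 and 1.3 and the analysis of libraries with few Xist counts were chosen after values were seen. The members and lists were chosen with earlier results of these data known. Values of a few genes are not reported here.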

Additional observations from a re-analysis of the deposited data

Results flagged for a closer look

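The genotype effect differed between the library sets for 4 chromatin genes, by a test of that difference in the fit with 1 mean per group and set (edgeR, adjusted over all tested genes). That is 5.0% of the chromatin genes, below the 7.92% of all tested genes. The log2 fold change in the set with few receptor reads minus that in the set with more was 1.46 for Kdm6b (adjusted p = 0.0176), 1.14 for Smarce1 (adjusted p = 0.00305), 0.83 for Smarcal1 (adjusted p = 0.0330) and 0.82 for Chd6 (adjusted p = 0.0317). For Kdm6b the log2 fold change was -0.87 in the set with more receptor reads and 0.59 in the set with few. The set with few holds 1 control, which is assumed to vary like the other libraries. In controls, Kdm5b stood out because control 3, at 92.8 CPM, lay far from the other 3, at 108 to 109 CPM. Among 72 groups of 4 values examined, chance alone puts about 1 in 20 past that limit.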

How the results depend on the processing

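Kdm6a, Kdm5c and Arid4a kept their direction in all 22 alternatives and passed in 8, 6 and 5 of them. Their log2 fold changes ranged from -1.17 to -0.59, from -0.75 to -0.33 and from 0.32 to 0.83. The chromatin genes called higher and lower numbered 1 and 2 as reported. They were 0 and 0 with RLE factors, with no filter on low counts, with the length and GC trend removed, with the Xist class as a covariate, with paired Nynrin CKO libraries summed, and without the 2 controls rich in Xist. They were 0 and 3 with upper-quartile factors, 0 and 4 with library totals, 1 and 6 with at least 1 CPM in 4 libraries, 5 and 10 with DESeq2, 5 and 5 with limma-voom and 2 and 4 in the set with more receptor reads; in the set with few, counted after seeing the data, they were 7 and 6, with control 4 alone and assumed to vary like the other libraries; the causes were not tested. Leaving out 1 library gave 0 to 4 higher and 0 to 2 lower, with calls left only without control 4 (4 and 2). All tested genes called higher and lower, 611 and 162 as reported, went from 0 and 0 (replicate block) to 1847 and 1647 in the set with few receptor reads, and were 1714 and 981 with DESeq2 and 1128 and 243 without control 4. The chromatin median moved to -0.28 with library totals, -0.12 and 0.17 in the libraries with more and with few receptor reads, and 0.21 with the length and GC trend removed. The replicate block called 0 and 0. No pairing by the shared numbers is given in the labels used. Deviations of same-numbered libraries correlated at 0.162, 0.152, -0.173 and 0.323. Controls 1, 2 and 4 matched the Nynrin CKO library of their own number best, and control 3 matched Nynrin CKO 1 best. Whether the libraries are paired is thus not settled. Of the 36 named genes, 16 changed sign in some alternative, none of these 16 having passed as reported, and no value with a changed sign passed. Log2 fold changes with a changed sign follow. With RLE factors they were -0.024 for Arid5a. With DESeq2 they were -0.024 for Arid5a. With upper-quartile factors they were -0.0096 for Setd3 and -0.092 for Arid5a. With library totals they were -0.14 for Smarca4, -0.0023 for Ehmt2, -0.17 for Setd3, -0.14 for Ep300 and -0.30 for Arid5a. With no filter they were 0.0074 for Ep400. With at least 1 CPM in 4 libraries they were -0.086 for Arid5a. With limma-voom they were -0.014 for Ep300 and -0.27 for Arid5a. With pairs summed they were -0.023 for Arid5a. In the set with more receptor reads they were -0.018 for Smarca4, -0.11 for Smarcal1, -0.0099 for Smarce1, 0.063 for Kdm2b, -0.20 for Ep300 and -0.54 for Arid5a. In the set with few they were 0.042 for Ep400, 0.22 for Setd5, -0.098 for Setd3 and 0.085 for Kdm2a. With the length and GC trend removed they were 0.26 for Ep400, 0.089 for Chd8, 0.26 for Kmt2d, 0.13 for Setd5, 0.18 for Kdm5b, 0.026 for Kdm2b and 0.0023 for Brd2. With the Xist covariate they were -0.0012 for Setd3, -0.26 for Arid5a and -0.16 for Kdm5d. In the libraries with few Xist counts they were 0.0016 for Ep400, 0.016 for Kdm2b, -0.21 for Arid5a and -0.13 for Kdm5d. With 1 library left out the ranges were -0.12 to 0.053 for Ep400, -0.24 to 0.076 for Setd5, -0.10 to 0.20 for Setd3 and -0.14 to 0.24 for Arid5a. Depth ranged from 36942835 to 56437299 counts per library, and counting precision was lowest for genes with few counts, such as Smarca1, Chd5 and Kdm4d. Genes with counts numbered 28914 to 31344 in the libraries with few receptor reads and 40240 to 44562 in those with more.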
